A study of Mus musculus with 6 samples.

Results

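The 38 genes described here belong to the amino acid response and to the protein folding machinery of the endoplasmic reticulum (ER). Each was found by its symbol in a table of 23358 gene rows from mouse bone marrow mesenchymal stem cells. The rule that picks them is a list of symbols. They fall into 2 arms, which are reported apart. The ATF4 arm has 23 genes: transcription factors, their feedback and stress effectors, amino acid synthesis and transport, and 6 tRNA synthetases. The ER chaperone arm has 15 genes: the stress sensors, Xbp1, chaperones, disulfide isomerases and degradation factors.

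The cells, grown from the marrow of C57BL/6 mice and used at passage 6 to 12, adhere and can form bone, cartilage and fat. All 6 libraries come from transfected cells: a non-targeting siRNA in 3 (control) and 1 siRNA sequence against Dia2, at 50 nM, in 3 (Dia2). Dia2, the product of Diaph3, is a formin that builds unbranched actin filaments. RNA was taken at 1 time, 24 h after fresh medium replaced the transfection mix. Whether replicates were separate cultures is not stated, and the p-values below take the spread among libraries, possibly a technical one, as their error.

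ATF4 is a transcription factor whose mRNA is translated better when the initiation factor eIF2 is phosphorylated, as happens when amino acids run short, when unfolded protein builds up in the ER or under other stresses. It raises genes that make, import and charge amino acids, and with CHOP (Ddit3) it raises genes that end the response or lead to cell death. In the ER, the membrane proteins PERK (Eif2ak3), IRE1 (Ern1) and ATF6 sense unfolded protein. PERK phosphorylates eIF2, IRE1 splices the Xbp1 mRNA, and ATF6 is cut to release a factor that, with spliced XBP1, raises chaperone and degradation genes. Mesenchymal cells secrete much collagen and other matrix, so their ER holds abundant folding factors. Translation, eIF2 phosphorylation, Xbp1 splicing and ATF6 cleavage were not measured here. The values below are mRNA levels only.

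Library depth ranged from 70538768 to 110006338 counts, and the ribosomal precursor Rn45s took 6% to 11.7% of them, with its high shares in control replicate 3 and Dia2 replicate 1. The targeted gene stood at 83.2 ± 2.7 CPM with control siRNA and at 7.76 ± 0.532 CPM with Dia2 siRNA (SD, n = 3 each; 10.7-fold lower, adjusted p = 1.66e-11). CPM, counts scaled to a common library size with TMM factors, are used for levels, and adjusted p-values are those of edgeR over all 14151 genes tested. Of those genes, 59.2% were called at an adjusted p under 0.05: 29.3% lay higher after Dia2 knockdown and 29.9% lower. The median absolute log2 fold change of all tested genes was 0.304. Summed levels of 11 mesenchymal stem cell markers were 2913 to 3214 CPM in the control and 5268 to 5336 CPM in the Dia2 libraries. All 10 that could be tested rose, and Thy1, at 0 to 0.107 CPM, was not tested. Most of the sums came from Cxcl12 (means of 815 CPM with control and 2097 CPM with Dia2 siRNA) and Itgb1 (1428 and 1831 CPM). Markers of other cells were scarce. The sum over 10 blood and macrophage markers was 11.2 to 12.5 CPM with control and 6.19 to 8.21 CPM with Dia2 siRNA, with Tyrobp at 0 in every library, and 3 of 5 tested markers fell. The sum over 6 endothelial markers was 1.34 to 1.51 and 0.812 to 0.979 CPM, with Emcn at 0 in every library, and 1 of 3 tested markers fell. The part of these shifts in the results below was not tested, and in bulk RNA fewer cells of a type cannot be told apart from less RNA per cell.

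All 38 genes passed the filter on low counts. Of them 14 were higher and 12 lower with Dia2 siRNA and 12 did not pass the test. Changed genes thus made up 68.4% of the members beside 59.2% of all genes. Over all 38 members, called or not, the median absolute log2 fold change was 0.22, beside 0.304 over all tested genes. By arm it was 0.18 in the ATF4 arm and 0.37 in the ER arm. Only 1 member, Chac1, was called and changed by at least 2-fold, where 5.82% of all genes were higher and 2.76% lower by that much. The sum of all ATF4 arm transcripts was 3151 ± 136 CPM with control and 3057 ± 36.3 CPM with Dia2 siRNA, and that of the ER arm 6817 ± 66.5 and 6802 ± 94.6 CPM (SD, n = 3 each). In both sums the libraries of the groups overlapped. In each arm members moved both ways, and the total level differed by less than the spread between libraries. The sums weigh abundant genes most: Hsp90b1, Calr and Hspa5 stood at 2004, 1564 and 1183 CPM in the control group. They therefore do not show whether rises and falls of the members balance.

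In the ATF4 arm, 7 genes were higher and 8 lower, and 8 did not pass. The shares of 30.4% and 34.8% lie near the 29.3% and 29.9% of all genes. The median log2 fold change was -0.06, beside 0.00534 over all tested genes. All 7 rises passed under every alternative tried. The falls were less stable: 10 passed without control replicate 3, 5 without control replicate 1, Dia2 replicate 1 or Dia2 replicate 2, and 4 without control replicate 2. Control replicate 3, one of the libraries rich in Rn45s, was the lowest control library for 17 of the 23 genes, beside 42.7% of all genes tested.

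**Figure D1:**
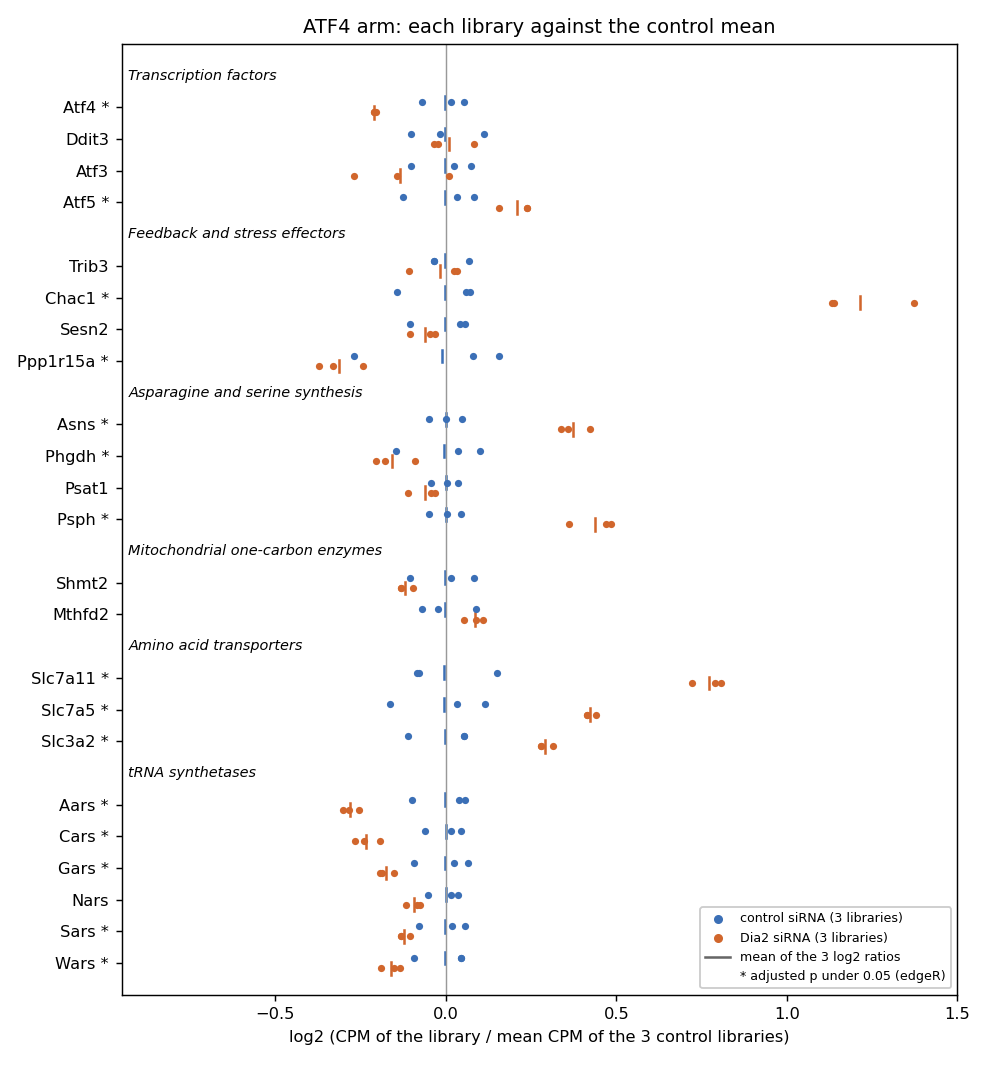
Levels of the 23 ATF4 arm genes in each library, as the log2 ratio of its CPM to the mean CPM of the 3 control libraries (horizontal axis). Points are single libraries, vertical ticks the mean of the 3 log2 ratios of a group, and stars mark an adjusted p under 0.05. Chac1 and the 3 transporters stand to the right of all control libraries, and the Dia2 libraries of the 6 tRNA synthetases to the left.

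The DNA letters that ATF4 and its partners of the C/EBP family recognise are shown here because several of the genes that moved apart carry them. The search took TGATGNAA, the core of the amino acid response element, on both strands of the RefSeq promoters (GRCm38.p6), which span 250 bases before to 50 bases after a start site. The promoter table matched 32 of the 38 members by symbol, 19 of them in the ATF4 arm; Slc7a5, Cars, Nars, Wars, Atf6 and Hyou1 had no match. Of the 19 genes 7 held the element (36.8%), where 3.97% of all 32851 promoters and 4.51% of all genes did. In the ER arm Herpud1 was the only one of 13. Each stretch is written 5′ to 3′ on the strand of its gene, with the fixed letters of the element, or of its complement, in capitals.
Chac1, chr2:119351034-119351071, plus strand: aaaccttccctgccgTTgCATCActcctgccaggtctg
Asns, chr6:7693210-7693247, minus strand: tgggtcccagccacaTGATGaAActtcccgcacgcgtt
Slc7a11 upstream copy, chr3:50443657-50443694, minus strand: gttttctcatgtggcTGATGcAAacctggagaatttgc
Slc7a11 downstream copy, chr3:50443638-50443675, minus strand: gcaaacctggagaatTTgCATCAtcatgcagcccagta
Atf3, chr1:191183421-191183458, minus strand: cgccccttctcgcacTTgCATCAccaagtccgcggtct
Gars, chr6:55037956-55037993, plus strand: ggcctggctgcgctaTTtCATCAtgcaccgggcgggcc

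Slc7a11 holds 2 copies on opposite strands. Trib3 has its copy just after the start site, which is not printed. Of the genes named in these 2 paragraphs as holding the element, which are not all that do, Chac1, Asns, Slc7a11 and Herpud1 rose, Gars fell, and Trib3 and Atf3 did not pass the test. A match of letters is a description of the promoter and not a measured binding site.

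The transcription factors of the ATF4 arm changed little. Atf4 itself, at chr15:80255184-80257541, stood at 233, 227 and 214 CPM in the control libraries and at 194, 195 and 194 CPM in the Dia2 libraries. No Dia2 library reached a control library, and Atf4 fell 1.15-fold (log2 fold change -0.21 ± 0.05, SE; adjusted p = 0.0019). Atf5, a relative that is also translated better under stress, stood at 93.8, 97.1 and 83.9 CPM with control and at 108, 102 and 108 CPM with Dia2 siRNA. Its groups did not overlap either, and it rose 1.16-fold (0.21 ± 0.06, adjusted p = 0.00668). Ddit3, which encodes CHOP, was at 24.7, 27.0 and 23.3 CPM against 24.4, 24.6 and 26.5 CPM. These values overlapped (0.01 ± 0.07, 95% interval -0.14 to 0.16, adjusted p = 0.909). Atf3, a factor induced by many stresses, was scarce at 5.02 ± 0.315 and 4.6 ± 0.446 CPM and did not pass (-0.13 ± 0.1, adjusted p = 0.309). Exons of Ddit3 and Atf5 overlap genes on the other strand, Mars over 3.97% and Nup62 over 4.11% of their bases, and reads of such partners cannot be told apart, since the strand setting is not stated.

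Among feedback and stress effectors, Chac1 made the largest change of all 38 members. Its product degrades glutathione. Chac1 stood at 3.45, 3.97 and 4 CPM in the control and at 8.37, 8.35 and 9.85 CPM in the Dia2 libraries. The lowest Dia2 library lay at more than double the highest control library, a rise of 2.34-fold (1.22 ± 0.1, adjusted p = 7.63e-07). Trib3, a pseudokinase that restrains ATF4 and CHOP and is often read as a marker of this response, was at 12.2, 13.1 and 12.2 CPM against 12.7, 11.6 and 12.8 CPM. The groups overlapped (-0.02 ± 0.07, 95% interval -0.17 to 0.13, adjusted p = 0.803). Sesn2 encodes the leucine-binding stress protein sestrin 2. Its levels of 80.5 ± 4.8 and 77.2 ± 2.06 CPM gave no call (-0.06, adjusted p = 0.338), and leaving out control replicate 3 gave one (-0.11, adjusted p = 0.0119). Ppp1r15a encodes GADD34, the stress-induced subunit that brings a phosphatase to eIF2. It was at 20, 19 and 14.9 CPM with control and at 13.9, 15.2 and 14.3 CPM with Dia2 siRNA, so that control replicate 3 lay among the Dia2 libraries. It fell 1.24-fold (-0.31 ± 0.1, adjusted p = 0.0137) and lost the call without control replicate 1, control replicate 2 or Dia2 replicate 1 (adjusted p = 0.0763, 0.0557 and 0.0522).

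Of the enzymes that make amino acids, Asns and Psph rose while the first steps of serine synthesis did not. Asns, asparagine synthetase, stood at 121, 113 and 117 CPM in the control and at 157, 148 and 150 CPM in the Dia2 libraries. These groups were well apart, and Asns rose 1.29-fold (0.37 ± 0.05, adjusted p = 2.14e-05). Serine is made from a glycolytic intermediate by Phgdh, Psat1 and Psph in turn. Phgdh was at 211, 202 and 178 CPM against 174, 171 and 185 CPM. Its fall of 1.11-fold (-0.16 ± 0.06, adjusted p = 0.0462) rests on small margins, since control replicate 3 lay inside the Dia2 range and the call was kept under 9 of 17 alternatives. It was lost without control replicate 1 or 2 and without Dia2 replicate 1 or 2 (adjusted p = 0.181, 0.119, 0.124 and 0.168). Psat1, the middle enzyme and the most abundant of these at 311 ± 8.48 and 298 ± 8.51 CPM, did not pass (-0.06, adjusted p = 0.285). Psph, the last enzyme, rose 1.36-fold from 30.1, 31.0 and 29.0 CPM to 41.6, 38.6 and 42.0 CPM (0.44 ± 0.06, adjusted p = 4.67e-05), with no overlap. Cct6a, on the other strand, covers 10.4% of the exon bases of Psph. The mitochondrial folate enzymes that take up carbon from serine showed no call by edgeR: Shmt2 was at 186 ± 12.1 and 171 ± 2.15 CPM (-0.12, unadjusted p = 0.0378, adjusted p = 0.0619) and Mthfd2 at 69.5 ± 3.97 and 73.7 ± 1.4 CPM (0.08, adjusted p = 0.179). The enzyme gene Shmt2 was called lower once control replicate 3 was left out (-0.17, adjusted p = 0.000118).

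All 3 amino acid transporter genes rose, where 29.3% of all genes were called higher. Slc7a11, the cystine importer whose cargo feeds glutathione synthesis, was at 9.60, 9.64 and 11.3 CPM in the control and at 17.8, 17.6 and 16.8 CPM in the Dia2 libraries, a rise of 1.72-fold (0.78 ± 0.07, adjusted p = 2.42e-06). Slc7a5, the LAT1 importer of leucine and other large neutral amino acids, rose 1.34-fold from 182, 172 and 150 CPM to 224, 224 and 228 CPM (0.42 ± 0.06, adjusted p = 0.000106). Slc3a2 encodes 4F2hc, the heavy chain that both of these importers need at the cell surface. It rose 1.22-fold from 130, 130 and 116 CPM to 152, 152 and 156 CPM (0.29 ± 0.05, adjusted p = 0.000354). In each of these genes all Dia2 libraries lay above all control libraries, as was so for 32.3% of all genes.

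The tRNA synthetases, which load amino acids onto tRNAs, moved the other way. Of 6 members 5 fell (83.3%, beside 29.9% of all genes), and all 6 log2 fold changes were below 0. For all 6 the 3 Dia2 libraries lay below the 3 control libraries, as was so for 32.2% of all genes. Aars, the alanine enzyme, fell most, 1.21-fold from 424, 419 and 381 CPM to 335, 331 and 342 CPM (-0.28 ± 0.05, adjusted p = 0.00049). Cars, Gars, Wars and Sars, for cysteine, glycine, tryptophan and serine, fell at log2 fold changes of -0.23, -0.18, -0.16 and -0.12 (adjusted p = 0.00112, 0.00904, 0.0145 and 0.0389). Nars, the asparagine enzyme, was at 390 ± 12.3 and 366 ± 5.15 CPM and did not pass (-0.09 ± 0.04, adjusted p = 0.1). The number that fell was 3 without control replicate 2, Dia2 replicate 2 or Dia2 replicate 3, where Wars and Sars lost their calls (adjusted p of Wars 0.052, 0.0544 and 0.0611). Sars also lost its call without control replicate 1 or Dia2 replicate 1 and kept it under 7 of 17 alternatives. Exosc6, on the same strand, covers 14.3% of the annotated exon bases of Aars.

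Other genes of this pathway, from lists that overlap no member, give the wider setting. Of 24 tested other ATF4 targets 13 were higher (54.2%, beside 29.3% of all genes) and 2 lower (8.33%, beside 29.9%), with a median log2 fold change of 0.26. Slc6a9, a glycine transporter, rose 2.19-fold from 16.7 ± 0.815 to 36.7 ± 1.34 CPM. Aldh1l2, a mitochondrial folate enzyme, rose 2.14-fold from 73.4 ± 3.03 to 157 ± 2.2 CPM, and the lipoprotein receptor gene Vldlr rose 2.13-fold. Slc1a5, a glutamine importer, fell 2.02-fold from 61.0 ± 4.92 to 30.1 ± 1.73 CPM. The 2 falls became 4 without control replicate 3.

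The remaining cytosolic tRNA synthetases resembled the 6 members, with 8 of 14 lower (57.1%, beside 29.9% of all genes), none higher by edgeR, DESeq2 or limma, and a median of -0.25. At an unadjusted p under 0.05, 0 were higher, but 1 was called higher by edgeR in each of 3 alternatives: upper-quartile factors, without control replicate 3, and without control replicate 3 and Dia2 replicate 1 together. The largest falls among them were those of Farsb (-0.56) and Farsa (-0.55), which make the 2 subunits of the phenylalanine enzyme, followed by Rars (-0.47) and Kars (-0.32), the enzymes for arginine and lysine. Hars, named after its values were seen, did not pass (-0.27 ± 0.32, SE). It was at 97.6, 94.5 and 188 CPM with control and at 106, 102 and 107 CPM with Dia2 siRNA. The sign of its change thus rests on control replicate 3. A list of 16 mitochondrial tRNA synthetases, which leaves out Lars2, had 6 lower (37.5%, near the 29.9% of all genes) and 2 higher (12.5%, beside 29.3%). Sars2 was 1.83-fold, Wars2 1.81-fold, Yars2 1.66-fold and Aars2 1.56-fold lower. Of 11 other folate enzymes and carriers 4 were lower (36.4%, also near that of all genes) and 1 higher (9.09%), the latter count being 2 without control replicate 3 and 0 without control replicate 2, Dia2 replicate 1 or Dia2 replicate 2. Shmt1, the cytosolic counterpart of Shmt2, fell 1.58-fold, and Mthfd1, Tyms and the folate carrier Slc19a1 fell at -0.46, -0.39 and -0.32. A list of 14 genes holds those for eIF2, its kinases, phosphatase subunit and exchange factor, and also Gcn1 and Impact. In it 8 were lower (57.1%, beside 29.9% of all genes) and 1 higher (7.14%, beside 29.3%). The 1 higher was Impact (0.30), named after its value was seen. The median of the list was -0.30. Eif2s1, the subunit that is phosphorylated, fell 1.42-fold from 147 ± 6.41 to 103 ± 3.35 CPM. Eif2ak4, which encodes the amino acid sensing kinase GCN2, fell 1.38-fold, and the exchange factor subunit genes Eif2b5 and Eif2b1 fell 1.37-fold and 1.31-fold. Slc7a11 is also a target of NRF2, the factor that answers oxidative stress. In a list of 7 other NRF2 targets 4 were higher (57.1%) and 3 lower (42.9%), beside 29.3% and 29.9% of all genes. They ran from Srxn1, a peroxiredoxin repair enzyme, at -1.01 and Txnrd1, a thioredoxin reductase, at -0.74 to Hmox1, heme oxygenase, at 0.49, with Gsr at 0.35.

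In the ER chaperone arm 7 genes were higher and 4 lower, and 4 did not pass. The shares were 46.7% and 26.7%, beside 29.3% and 29.9% of all genes, and the median log2 fold change was 0.10. The Dia2 libraries lay above the control libraries for 9 genes and below them for 4, where 32.3% and 32.2% of all genes did so. These 11 calls held under every alternative. Per kilobase of the deposited coding length this arm held the most abundant of the 38 transcripts. Calr, Hsp90b1, Hspa5 and Pdia6 stood at 805, 726, 452 and 262 CPM per kb in the control group, and Nars, at 147, was the highest of the ATF4 arm. At the low end were Ern1 at 5.32 and Dnajb9 at 5.95 CPM per kb, still above Chac1 at 2.43 and Slc7a11 at 1.10.

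**Figure D2:**
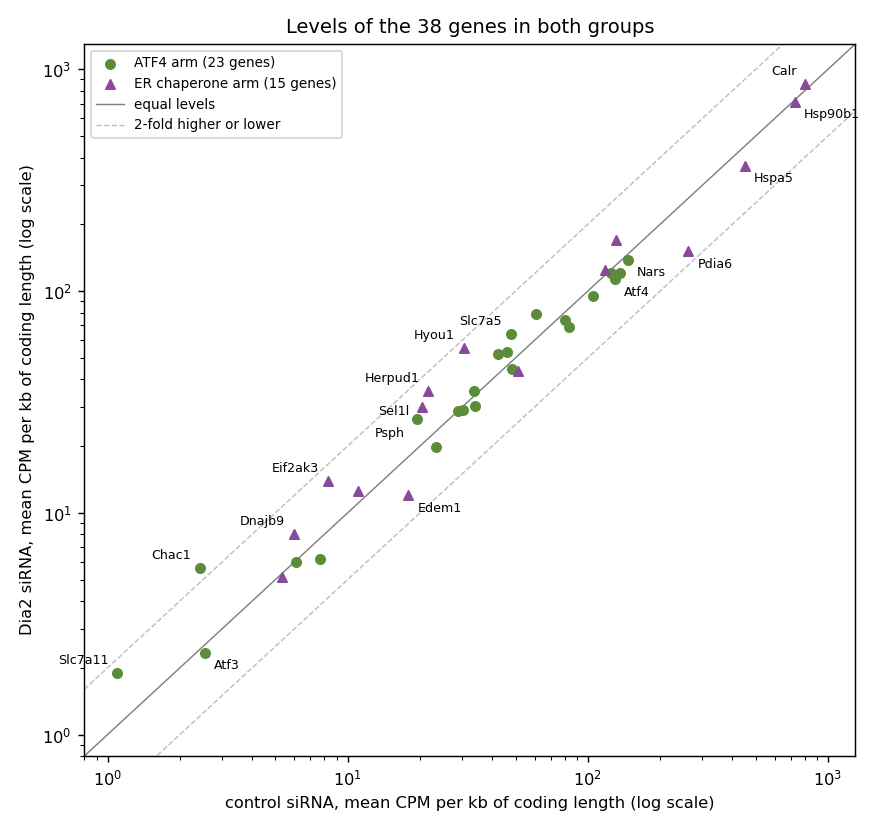
Mean CPM per kilobase of coding length in the control group (horizontal axis) and the Dia2 group (vertical axis), both on log scales, for the 38 genes (circles, ATF4 arm; triangles, ER arm). The solid line marks equal levels and the dashed lines a 2-fold difference. Chac1 alone lies outside the dashed lines, and Pdia6, at 262 and 151, is the abundant gene farthest below the line of equality.

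The ER stress element, a CCAAT box and the letters CCACG with 9 bases between them, is the site at which ATF6 and the factor NF-Y bind chaperone promoters. Its copies are shown because the chaperone genes that hold it moved apart, and both strands were searched. An exact copy was in 5 of the 13 ER arm genes with a promoter sequence (38.5%), and none of the 19 ATF4 arm genes held one, where 39 of 32851 promoters (0.119%) did. Stretches are written 5′ to 3′ on the gene's strand from GRCm38.p6, with the fixed letters, or their complement, in capitals.
Hspa5, chr2:34772017-34772051, plus strand: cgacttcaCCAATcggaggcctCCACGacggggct
Pdia6, chr12:17266483-17266517, plus strand: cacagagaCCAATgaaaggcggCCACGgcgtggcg
Canx, chr11:50325792-50325826, minus strand: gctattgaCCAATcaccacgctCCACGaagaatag
Calr, chr8:84847067-84847101, minus strand: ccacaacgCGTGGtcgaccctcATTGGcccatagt
Hsp90b1 upstream copy, chr10:86705630-86705664, minus strand: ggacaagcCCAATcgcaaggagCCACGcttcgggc
Hsp90b1 downstream copy, chr10:86705525-86705559, minus strand: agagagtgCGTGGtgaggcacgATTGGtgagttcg

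With this element in common, Hspa5 and Pdia6 fell, Canx rose, and Calr and Hsp90b1 did not pass. Another motif, the UPR element TGACGTGG, which shares the letters CGTGG with the ER stress element, was in none of the 32 promoters and in 0.676% of all promoters. Absence from this window says only that these exact letters are not there.

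**Figure D3:**
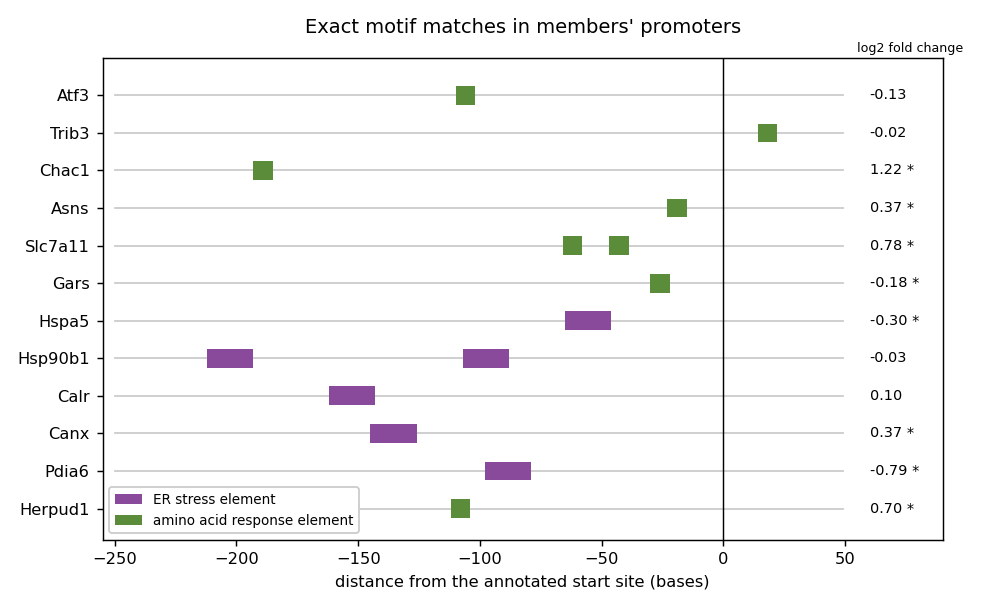
Positions of exact motif matches in the promoters of 12 of the members with a match, in bases from the annotated start site (horizontal axis, 0 at the start site), with each gene's log2 fold change at the right and a star for an adjusted p under 0.05. Genes drawn with the same element have changes of both signs, such as -0.79 for Pdia6 and 0.37 for Canx, or -0.18 for Gars and 1.22 for Chac1.

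The 3 stress sensors differed. Eif2ak3, which encodes PERK, rose 1.68-fold from 37.8, 37.4 and 36.4 CPM to 62.2, 63.6 and 61.7 CPM (0.75 ± 0.05, adjusted p = 8.98e-08). The groups were far apart relative to their spread. Gm43292, on the other strand, covers 8.05% of the exon bases of Eif2ak3. Atf6 was at 82.4, 81.9 and 82.8 CPM with control and at 93.6, 91.8 and 93.7 CPM with Dia2 siRNA, a smaller rise of 1.13-fold that also separated the groups (0.18 ± 0.04, adjusted p = 0.00271). Ern1, which encodes IRE1, was at 21.6, 21.7 and 20.2 CPM against 19.5, 21 and 20.5 CPM and did not pass (-0.06 ± 0.06, adjusted p = 0.426). Xbp1, whose mRNA IRE1 splices, fell 1.17-fold from 89.2, 93.2 and 94.8 CPM to 79.8, 79.6 and 76.7 CPM (-0.23 ± 0.04, adjusted p = 0.00076). The count covers the gene as a whole and not its spliced form.

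Among the chaperones the main ER Hsp70 and its larger relative moved in opposite directions. Hspa5 encodes BiP, which binds unfolded chains and keeps the 3 sensors inactive. It stood at 1223, 1165 and 1161 CPM in the control and at 979, 957 and 947 CPM in the Dia2 libraries. Its groups did not overlap, and it fell 1.23-fold (-0.30 ± 0.04, adjusted p = 8.2e-05). Hyou1 encodes GRP170, an exchange factor of BiP, and made the largest rise of the arm, 1.80-fold from 141, 138 and 127 CPM to 248, 239 and 245 CPM (0.85 ± 0.05, adjusted p = 4.36e-08). Dnajb9, a co-chaperone of BiP that represses IRE1, rose 1.35-fold from 10.4, 10.0 and 12.9 CPM to 17.0, 14.1 and 13.8 CPM (0.43 ± 0.1, adjusted p = 0.00305), with wider spread than the abundant genes. Hsp90b1, the ER Hsp90 also called GRP94, was at 1970, 1989 and 2054 CPM against 2027, 1951 and 1924 CPM. The groups overlapped (-0.03 ± 0.04, 95% interval -0.12 to 0.07, adjusted p = 0.608). The pseudogene 1810014B01Rik, on the other strand, covers 10.3% of the exon bases of Hsp90b1.

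Canx and Calr encode calnexin and calreticulin, the membrane-bound and soluble lectins that hold newly made glycoproteins. Canx rose 1.29-fold from 562, 550 and 580 CPM to 761, 715 and 707 CPM (0.37 ± 0.05, adjusted p = 3.24e-05). Calr was at 1605, 1588 and 1500 CPM with control and at 1662, 1663 and 1701 CPM with Dia2 siRNA. Its groups were separate but close, and its difference gave no call (0.10 ± 0.04, adjusted p = 0.0679). A call was made under 5 of 17 alternatives, among them that without control replicate 3 (0.07, adjusted p = 0.0366).

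The disulfide isomerases, which form and reshuffle disulfide bonds, also diverged. Pdia6, which in addition restrains IRE1 and PERK, made the largest fall of the 38 genes. It was at 571, 575 and 521 CPM in the control libraries and at 323, 320 and 321 CPM in the Dia2 libraries. The 3 Dia2 values were nearly equal and far below the control range, a fall of 1.73-fold (-0.79 ± 0.05, adjusted p = 8.77e-08). Pdia4 was at 293 ± 8.15 and 311 ± 3.2 CPM and did not pass (0.09 ± 0.04, adjusted p = 0.103), but was called with upper-quartile factors (0.12, adjusted p = 0.0269) and when genes under a mean of 1 CPM were dropped (0.11, adjusted p = 0.0415).

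Of the genes for ER-associated degradation, which returns misfolded proteins to the cytosol, Herpud1 and Sel1l rose and Edem1 fell. Herpud1, a scaffold of the degradation complex and a gene that stress induces, rose 1.63-fold from 41.9, 42.4 and 37.5 CPM to 64.8, 65.9 and 67.7 CPM (0.70 ± 0.06, adjusted p = 5.68e-07). Sel1l, the partner of the ubiquitin ligase HRD1, rose 1.47-fold from 125, 127 and 133 CPM to 194, 184 and 187 CPM (0.56 ± 0.05, adjusted p = 6.88e-07). Edem1, which marks glycoproteins for disposal by trimming mannose, fell 1.49-fold from 104, 105 and 105 CPM to 71, 71.3 and 68.8 CPM (-0.57 ± 0.04, adjusted p = 2.82e-07). In none of the 3 genes did the groups overlap, where 32.3% of all genes lay wholly higher and 32.2% wholly lower.

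**Figure D4:**
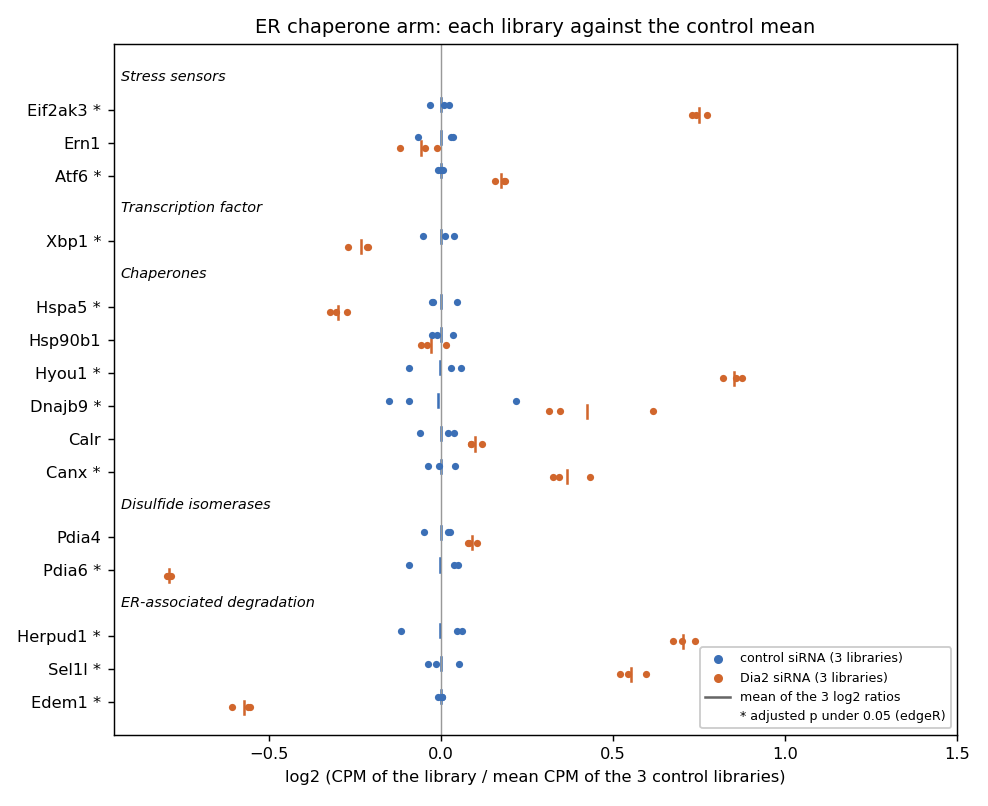
Levels of the 15 ER arm genes in each library, as the log2 ratio of its CPM to the mean CPM of the 3 control libraries (horizontal axis), with points for libraries, ticks for the mean of 3 log2 ratios and stars for an adjusted p under 0.05. Hyou1, Eif2ak3, Herpud1 and Sel1l stand to the right, and Pdia6, Edem1, Hspa5 and Xbp1 to the left.

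Other ER chaperones and foldases were mostly higher. Of 23 other chaperones and foldases 14 were higher (60.9%, beside 29.3% of all genes) and 3 lower (13%, beside 29.9%), with a median log2 fold change of 0.31. Uggt1, the glucosyltransferase that returns unfolded glycoproteins to calnexin and calreticulin, rose 1.66-fold from 267 ± 7 to 443 ± 2.94 CPM. Pdia5, another isomerase, rose 1.53-fold, Fkbp10, a prolyl isomerase that acts on collagen, 1.52-fold from 336 ± 28.9 to 512 ± 5.85 CPM, and Ero1l, the oxidase that recharges the isomerases, 1.46-fold. Pdia3 (0.33) and P4hb (0.31), named after their values were seen, are abundant isomerases that rose where Pdia6 fell. The 3 lower genes became 1 with other scaling (upper-quartile or no composition factor) and without control replicate 1 or 2 or without Dia2 replicate 1 or 2.

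Of 18 other degradation genes 11 were higher (61.1%, beside 29.3% of all genes) and 2 lower (11.1%, beside 29.9%). This count was less stable, at 7 higher without control replicate 2, 6 without any 1 of the Dia2 replicates, which left 1 lower, and 6 with no composition factor. A count of 6 of 18 lies near the 29.3% of all genes. Man1b1, Edem3, Os9 and Herpud2 rose at 0.49, 0.45, 0.37 and 0.30. Man1b1 and Edem3 trim mannose as Edem1 does, and Os9 reads the trimmed sugars. A further list has 14 genes of the translocon, through which new proteins enter the ER, its receptor complex and signal peptidase. Of these 8 were higher (57.1%, beside 29.3% of all genes) and 4 lower (28.6%, near the 29.9% of all genes). Sec11a (0.56), Sec63 (0.36) and Sec62 (0.36) were up and Ssr2 (-0.48) was down. Of 11 other regulators 4 were higher (36.4%) and 5 lower (45.5%), beside 29.3% and 29.9% of all genes. The 2 proteases that cut ATF6 differed, with Mbtps1 1.37-fold higher and Mbtps2 1.48-fold lower, and the cell death genes moved both ways. Bbc3 and Bcl2l11 rose 1.41-fold and 1.30-fold, while Bax (-0.35) and Bak1 (-0.22), named after their values were seen, fell.

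**Figure D5:**
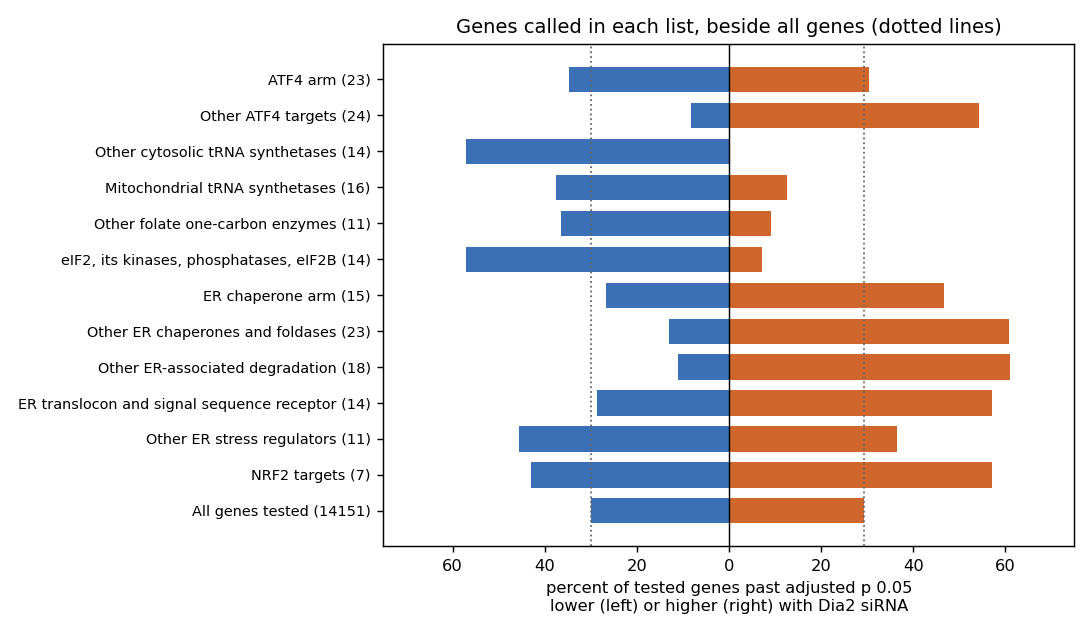
Percent of the tested genes of each list that were lower (left) or higher (right) with Dia2 siRNA at an adjusted p under 0.05, with the number tested in brackets; dotted lines mark the 29.9% and 29.3% of all 14151 genes. The bar of the other cytosolic tRNA synthetases lies wholly on the left, at 57.1%, and the other ER chaperones reach 60.9% on the right.

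Short words in 3′ UTRs had been found in an earlier scan of these data to go with falls (TATGTGA and ATGTGAA) and rises (GCAGTAC), so their presence in the members is given here as a description. The medians below come from the same data that picked the words, so they test nothing. In GENCODE M21, GCAGTAC was in the 3′ UTR of 6.07% of 13005 tested genes, whose median log2 fold change was 0.21 beside -0.01 for the rest. Chac1 was the only member that held it, a share of 2.63%. ATGTGAA was in 18.1% of these genes (median -0.09, beside 0.02 for the rest) and in 6 of the 38 members (15.8%): Trib3, Sesn2, Slc7a11, Aars, Hsp90b1 and Edem1. TATGTGA was in 13.4% of the genes and in 10.5% of the members: Trib3, Slc7a11, Aars and Edem1. Of the members with either word Aars and Edem1 fell, Slc7a11 rose and the others did not pass. The part of these words in the changes was not tested.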

How the data were processed

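The deposited table gives for each gene and library a raw count and an RPKM value, per the file headers. The deposited RPKM values, scaled to coding length and library size, were used only to check the denominators. The submitters' processing notes name TopHat2 2.0.6, HTSeq and bcl2fastq and the human builds hg19 and GRCh37, but the table holds mouse genes, and all 38 members overlapped the GRCm38 gene of their symbol. Strand and multi-mapping settings are not stated. The deposited counts are all even, so a fragment may have been counted as 2. A floor of 6 counts is 0.0545 to 0.0851 CPM and covers counting error only.

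Genes were kept by filterByExpr, scaled by TMM and tested with edgeR 4.0.16 (quasi-likelihood, robust; R 4.3.3) on 3 control against 3 Dia2 libraries, with Benjamini-Hochberg adjustment over all tested genes; the SE is the log2 fold change divided by the root of F. On simulated counts of 13258 genes, edgeR recovered 92% of 2-fold and 44% of 1.25-fold changes. The simulation changed 100 genes at each fold and gave every gene the same spread, whereas 59.2% of genes were called in the data. Its shares check the code and do not give the recovery in these libraries. Alternatives used limma 3.58.1 and DESeq2 1.42.0, other factors, filters, a block and left-out libraries; halved counts and fits without Rn45s and Lars2, or without control replicate 3 and Dia2 replicate 1 (rich in Rn45s), were chosen after seeing the data. Named genes are all members, Diaph3 and, from each other list, up to 4 genes past the threshold with the largest change and a mean CPM of at least 1. The motif matches in 1 member's promoter are not reported here, so the genes named as holding an element are fewer than the count. The members and lists were chosen with earlier results of these data known. No pair of replicates agreed within sampling noise (chi-square per degree of freedom 6.7 to 85.2). Rn45s was included in these values. The largest, 85.2, was for control replicates 1 and 3, with Rn45s shares of 6.05% and 11.7%, so it is not a measure of spread across genes alone.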

Additional observations from a re-analysis of the deposited data

How the results depend on the processing

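Of the 26 members past the threshold, 22 stayed past it in the same direction under all 17 alternatives; the others were Ppp1r15a, Phgdh, Sars and Wars. Of the 12 not past it, 7 did not pass under any. With a library left out, the falls of the ATF4 arm numbered 4 to 10, its rises 7, the rises of the ER arm 7 to 8, its falls 4, and all changed genes 7343 to 9193 beside 8380. With the other settings the ATF4 falls numbered 6 to 10 and the ER rises 7 to 9. Members near 0 changed sign without passing: with upper-quartile factors Trib3 and Hsp90b1 stood at 0.01 each, Ddit3 at -0.01 with no composition factor and at -0.02 without control replicate 3 and Dia2 replicate 1 together, and with single libraries left out Ddit3 ranged from -0.04 to 0.06 and Trib3 from -0.05 to 0.02. The cause was not tested. Same-numbered libraries did not deviate together (correlations 0.0036, -0.00137 and -0.0844), so the numbers were not taken as pairs. With the replicate number as a block, 7772 genes passed, the ATF4 arm had 7 higher and 6 lower (Phgdh and Sars lost their calls) and the ER arm 7 higher and 4 lower, and the other degradation genes had 6 higher. Scarce genes such as Atf3 and Chac1 carry the larger errors.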
